A study of Mus musculus with 15 samples.

Results

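Complement is a cascade of plasma and cell-derived proteins that marks surfaces and lyses cells, and 8 genes of it, out of 57132 listed, were followed here across all 15 libraries: C1ra, C1s1, C4b, C3, Cfb, Serping1, Cd55 and Cd59a. They were chosen with earlier results of these data known. Their rows were taken by gene name, and each name matched 1 gene in every table. RNA came from mouse podocytes, the epithelial cells that wrap the filtering capillaries of the kidney, and each group held 3 libraries. The first comparison set Col4a3-/- podocytes with vehicle (KO) against Col4a3+/+ podocytes with vehicle (WT). Col4a3 encodes a chain of the collagen IV network in the filter's basement membrane, and its loss models Alport syndrome. A second set of experiments used Col4a3-/- podocytes only: cells given apolipoprotein M (ApoM, a carrier of sphingosine-1-phosphate) and cells given CYM50358 (which blocks S1PR4, a receptor for that lipid), both for 24 h, and Col4a3-/- cells with vehicle. All cells of this second set, vehicle included, carry the Col4a3-/- genotype, and no treated WT cells were analysed here. In the genotype set the labels name 1 line per genotype, so line and genotype cannot be told apart. They do not say whether libraries came from separate cultures, so p-values below measure the spread between libraries, which may be technical.

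As background, complement is started by 3 routes. In the classical route, the proteases C1r and C1s, held by C1q, cut C4 and C2. All routes meet at C3, the central component, whose fragments coat surfaces; factor B amplifies C3 cleavage in the alternative route. C1 inhibitor, the product of Serping1, blocks C1r and C1s, CD55 dismantles the enzymes that cut C3, and CD59 blocks the membrane attack complex. In the kidney, deposited complement is a feature of several glomerular diseases, and resident cells are known to make some components themselves.

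Recovered depth was 45417221 to 83166742 reads per library. Values are given as signal, the authors' CPM with a further scaling. Col4a3 itself had 60.9 to 81.8 in KO cells and 938 to 1268 in WT cells, so the targeted gene was low in the libraries labelled KO. Of 13 podocyte markers, Tcf21 had 0 reads in all libraries, and the summed level was 692 to 752 in KO cells and 984 to 1103 in WT cells. WT replicate 1 stood apart from replicates 2 and 3, with a chi-square per degree of freedom of at least 47.7 against 9.83 between the other two.

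Start-site sequences were taken from RefSeq on the GRCm38.p6 build (the deposited coordinates are on mm39), 250 bases before to 50 bases after the annotated start, for the C1r and C1s genes and for C3, since these were among the largest genotype differences. They read 5′ to 3′ on the gene's own strand, with matches to searched motifs in capitals. On the plus strand, the C1ra window is chr6:124512371-124512670 and that of its near-identical copy C1rb is chr6:124570180-124570479. On the minus strand, that of C1s1 (the upstream of 2 windows for that gene) is chr6:124542310-124542609 and that of C3 is chr17:57228087-57228386.
C1ra: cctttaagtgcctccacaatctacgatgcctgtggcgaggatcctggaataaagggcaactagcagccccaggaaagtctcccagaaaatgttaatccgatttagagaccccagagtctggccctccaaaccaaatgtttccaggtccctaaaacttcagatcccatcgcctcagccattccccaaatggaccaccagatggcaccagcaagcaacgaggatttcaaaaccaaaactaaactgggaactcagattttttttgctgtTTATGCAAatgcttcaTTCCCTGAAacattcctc
C1rb: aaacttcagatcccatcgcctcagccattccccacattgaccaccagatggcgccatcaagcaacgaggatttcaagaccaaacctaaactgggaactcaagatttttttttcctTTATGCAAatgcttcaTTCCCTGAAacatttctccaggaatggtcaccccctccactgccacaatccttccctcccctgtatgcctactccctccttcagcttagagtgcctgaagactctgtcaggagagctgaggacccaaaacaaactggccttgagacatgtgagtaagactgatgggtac
C1s1: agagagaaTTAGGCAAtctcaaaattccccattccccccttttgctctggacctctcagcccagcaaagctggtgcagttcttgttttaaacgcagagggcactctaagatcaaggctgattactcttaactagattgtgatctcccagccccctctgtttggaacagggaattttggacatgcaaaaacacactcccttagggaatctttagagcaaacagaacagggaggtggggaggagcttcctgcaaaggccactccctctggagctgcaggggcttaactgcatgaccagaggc
C3: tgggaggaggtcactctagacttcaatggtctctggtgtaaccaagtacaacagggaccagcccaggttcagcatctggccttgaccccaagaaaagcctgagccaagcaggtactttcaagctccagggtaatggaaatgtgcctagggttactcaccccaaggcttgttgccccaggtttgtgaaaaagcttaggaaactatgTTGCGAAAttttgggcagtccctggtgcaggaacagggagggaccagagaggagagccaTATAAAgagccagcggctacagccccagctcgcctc
The motifs searched, on both strands, were TTCNNNGAA (GAS), TTGCNNAA (C/EBP) and TATAAA, called a TATA box here, and by name ISRE and NF-kB. Positions count the start site as 1, with the base before it as -1. C1ra held a C/EBP match at position 17 and a GAS match at 33, and C1rb held the same letters at -135 and -119. C1s1 held a C/EBP match at -242, and C3 held a C/EBP match at -45 and a TATA box at 15. Over all 32851 windows of this length, 8.3% held GAS, 3.44% ISRE, 4.59% NF-kB, 10.8% C/EBP and 13.6% a TATA box, so these matches describe letters and show no factor at work. Of the 8 genes, 5 had a window; Cd59a held 1 ISRE match and Cd55 none of the motifs, and C4b, Cfb and Serping1 are named only.

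In the genotype comparison, 6 of the 8 complement genes were lower in KO cells, 1 (Cd55) did not pass the test and 1 (Cfb) was too low to be tested. The falls ran through the chain of components, from the C1 proteases (C1s1, C1ra) and C4b to C3, and included 2 of the 3 regulators (Serping1 and Cd59a). None was higher. Across all 14313 tested genes 44.7% were called, 22.6% as higher and 22% as lower, so a call by itself was common in this comparison. Calls are limma's moderated test on log2(signal + 1), with group as its only term and no pairing of libraries. They have Benjamini-Hochberg adjustment over all tested genes, at an adjusted p under 0.05. Differences are in log2(signal + 1), KO minus WT. A gene was tested where at least 3 libraries reached a signal of 0.5, and C1s1 passed that filter through WT cells alone, so it had to differ once tested and its place in these counts is a description. In bulk RNA, fewer cells making a transcript and less of it per cell cannot be told apart.

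**Figure D1:**
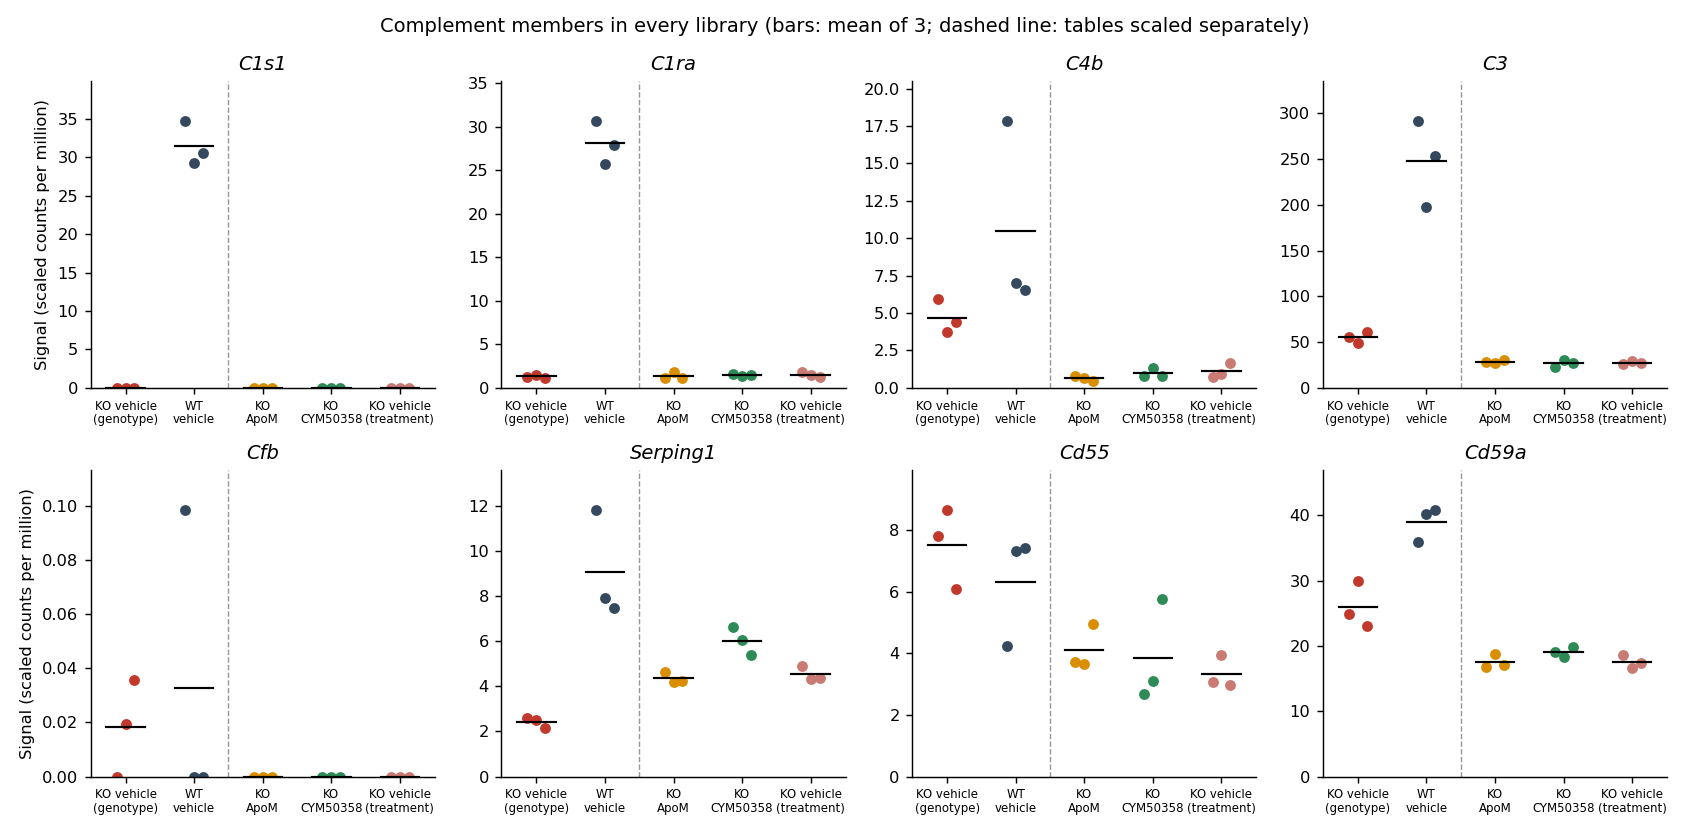
Signal (scaled CPM, linear axes from 0) of the 8 complement genes in each of the 15 libraries, 1 point per library, with a bar at the mean of 3. C1s1 lies at 0 in every KO library, C3, C1ra, Serping1 and Cd59a are separated between KO and WT cells, and Cfb stays under 0.1 throughout; the dashed line divides tables that were scaled separately.

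C1s1 encodes the protease C1s, which cuts C4 and C2. It had 0 reads in each of the 3 KO libraries, against signals of 34.7, 29.2 and 30.5 in WT cells (1760, 1372 and 1414 reads). The transcript was therefore listed at 0 in KO cells and ranked among the well-expressed complement genes of WT cells. With 3 reads as the floor of each KO library, C1s1 was at least 530-fold lower in KO than in WT cells; the floor covers counting error only. The 9 libraries of the treatment set gave 0 reads as well, so the gene had none in any of 12 KO libraries, with floors of 0.0353 to 0.0664.

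C1ra encodes C1r, the protease that activates C1s. Its signal was 1.28, 1.51 and 1.18 in KO cells and 30.6, 25.7 and 27.9 in WT cells. The groups lay far apart, with little spread within either. The difference was -3.64 on the log2 scale (SE 0.11, adjusted p = 3.2e-08). C1ra has a near-identical copy, C1rb, whose longest transcript aligns at 98% identity, with 48% of the 50-base windows of C1ra also found in it, so reads could be split between them.

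C1rb lay the other way. It had a signal of 5.36, 3.93 and 6.25 in KO cells and 0.138, 0.0639 and 0.0432 in WT cells (a log2 difference of 2.50). C1rb passed the filter through KO cells alone, so this too is a description, with no test. C1rb supplied 72.2% to 84.1% of the summed C1ra and C1rb signal in KO cells, and 0.155% to 0.449% in WT cells. The 2 genes summed, a sum chosen after the values were seen, averaged 6.51 ± 1.01 in KO cells and 28.1 ± 2.50 in WT cells (SD, n = 3 each). That sum differed by -1.96 on the log2 scale (adjusted p = 2.4e-06), a smaller fall than that of C1ra alone. For C1s, the copy C1s2 had a mean of 0.521 in KO cells and 0.333 in WT cells and did not pass the test, and it was the only C1s signal left in KO cells.

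These genes lie side by side on chromosome 6 of mm39, in the order C1rl, C1ra, C1s1, C1rb and C1s2. C1ra spans 124489364 to 124500402 and C1s1 spans 124507304 to 124519318, with 6901 bases between them, and C1rb begins 27934 bases past C1s1. Gm16567, a non-coding gene that lies inside the span of C1s1, had 0 reads in KO cells and 34 reads over the 3 WT libraries; whether counting used strand is not stated, so its reads and those of C1s1 cannot be told apart. The genes outside the cluster changed far less. Pex5 on one side differed by -0.29 and passed the test (adjusted p = 0.0031), and Lpcat3 on the other differed by -0.27 and did not (adjusted p = 0.063). C1rl, a C1r-like protease next to C1ra, fell by 0.36 on the log2 scale (adjusted p = 0.027). Chromosome 6 as a whole was shifted down, with a median of -0.17 over 722 tested genes, 41.1% of them called lower. With this median subtracted, C1ra kept its call and C1rl did not. C1s1 kept its call too, but it passed the filter through WT cells alone, so that call says nothing about this shift.

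**Figure D2:**
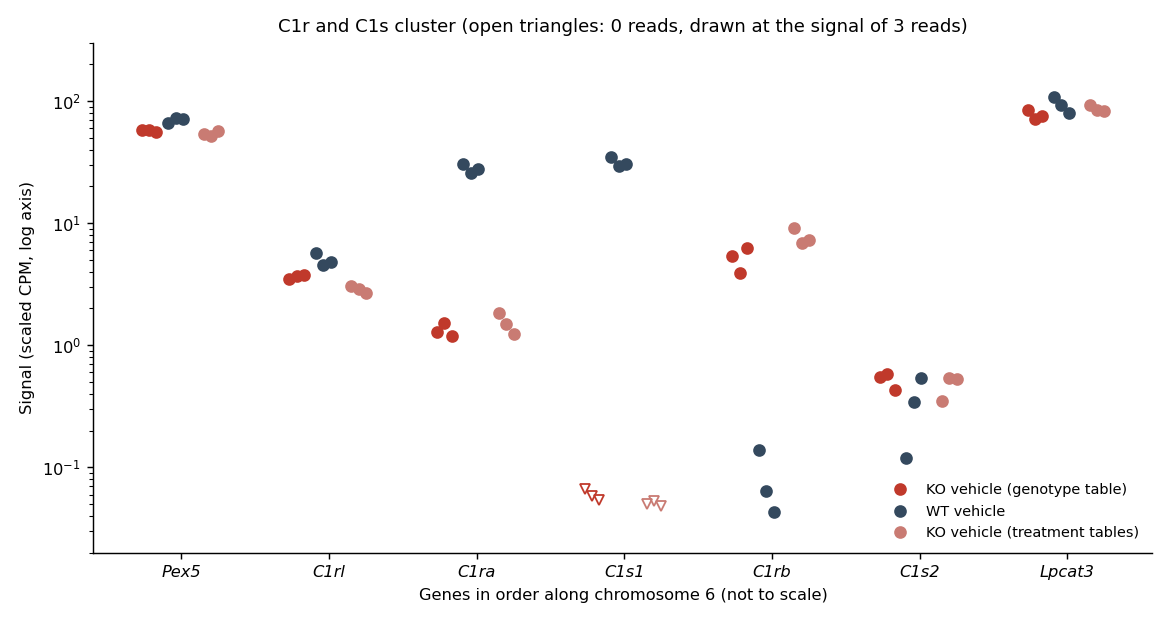
Signal (log axis) of the C1r and C1s genes and their flanking genes in gene order, 1 point per library, for KO and WT vehicle cells of the genotype set and KO vehicle cells of the treatment set. C1s1 has 0 reads in all KO libraries (open triangles, drawn at the signal of 3 reads) and 29.2 to 34.7 in WT cells, C1ra and C1rb trade places between KO and WT cells, and Pex5 and Lpcat3 stay within a narrow band.

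C4b encodes C4, which C1s cleaves. Its signal was 5.96, 3.72 and 4.39 in KO cells and 17.8, 7.01 and 6.57 in WT cells. All 3 WT libraries lay above the KO libraries, but 1 of them, replicate 1, was far above its group. The difference was -0.90 (SE 0.32, adjusted p = 0.044, limma), and it was -0.47 without WT replicate 1 (adjusted p = 0.034). The call was lost without KO replicate 2 or 3 (adjusted p = 0.14 and 0.12) and when the copy C4a was added in (-0.73, adjusted p = 0.063); the authors' deposited table gives an adjusted p of 0.073.

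C3 was the most abundant of the 8 genes in WT cells per kilobase. It had a signal of 55.3, 48.6 and 61.3 in KO cells and 292, 198 and 254 in WT cells. The lowest WT library was more than 3 times the highest KO library. C3 fell by 2.14 on the log2 scale (SE 0.13, adjusted p = 3.1e-06), and its leave-one-out differences ran from -2.29 to -2.01. Cfb, which encodes factor B, had 0, 1 and 2 reads in KO cells and 5, 0 and 0 reads in WT cells. Its level was at or near the 3-read floor in both groups, so a difference was not detectable at this depth.

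Among the regulators, Serping1 had a signal of 2.59, 2.50 and 2.17 in KO cells and 11.8, 7.90 and 7.47 in WT cells. The groups did not overlap, although WT replicate 1 was again the highest. Serping1 differed by -1.53 (SE 0.16, adjusted p = 8.3e-05). Cd59a, which protects cells from the membrane attack complex, had 24.8, 30.0 and 23.1 in KO cells and 35.9, 40.2 and 40.8 in WT cells. Every KO library was below every WT library, by a smaller margin than for C3 or Serping1, and the difference was -0.57 (SE 0.098, adjusted p = 0.0015).

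Cd55 did not pass the test. Its signal was 7.82, 8.67 and 6.11 in KO cells and 4.24, 7.33 and 7.43 in WT cells. The groups overlapped, with WT replicate 1 the lowest library. The difference was 0.24, with a 95% interval from -0.19 to 0.67 (adjusted p = 0.35), which leaves room for a rise but not for a fall as large as that of Cd59a.

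Groups that do not overlap were themselves common: 55.8% of tested genes had KO and WT values apart, and 6 of the 7 tested complement genes did, C1s1 among them by way of the filter. The median difference over those 7 was -1.53, the value of Serping1, against 0.003 over all tested genes. Over the 22 other complement genes tested it was -0.115. The followed genes were chosen with earlier results of these data known, so the median of the 7 is a description. It holds only genes that passed the filter, and setting C1s1 to its bound leaves it as it is.

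Levels can be set side by side between genes only per length. Per kilobase of exon, C3 was highest in WT cells with a signal of 48.2 ± 9.16, followed by Cd59a with 21.5 ± 1.49, C1s1 with 10.1 ± 0.915 and C1ra with 9.42 ± 0.827 (SD, n = 3). The last pair lay within each other's spread. Serping1 (3.90 ± 1.03), C4b (1.84 ± 1.12) and Cd55 (1.31 ± 0.374) followed with overlapping spreads for the last pair, and Cfb was at 0.0116. In KO cells the order per kilobase was Cd59a with 14.3 ± 1.96, then C3 with 10.7 ± 1.23, then Cd55 with 1.55 ± 0.269. Serping1 (1.04 ± 0.0956) and C4b (0.823 ± 0.202) came next and C1ra stood at 0.445 ± 0.0562. The membrane regulator Cd59a thus ranked above C3 in KO cells and below it in WT cells.

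Of 49 other complement genes, 22 were tested, of which 5 were higher and 7 lower in KO cells. The shares over all tested genes were 22.6% higher and 22% lower, so calls were common in any list. Among the called complement genes, C1rb and Cd93 passed the filter through KO cells alone, so their calls are descriptions. No C1q chain was seen: C1qa, C1qb and C1qc had 0 reads in both KO and WT cells, as did Mbl1, Mbl2, Fcna, Fcnb, Cfd, C6, C9 and Vtn.

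Cfi, which encodes factor I, a protease that inactivates C3b and C4b, had 1.90, 1.68 and 2.22 in KO cells and 15.5, 8.29 and 11.3 in WT cells (-2.07, SE 0.19, adjusted p = 3.7e-05). Clu, which encodes clusterin, an inhibitor of the terminal complex, averaged 34.7 ± 3.35 in KO cells and 259.6 ± 25.6 in WT cells (SD, n = 3 each) and fell by 2.87 on the log2 scale (adjusted p = 3.8e-08). Every KO library was below every WT library for both genes. C4bp, whose protein binds C4b, averaged 119.2 in KO cells and 151.3 in WT cells and fell by 0.34 (adjusted p = 0.016). Cd59b, the copy of Cd59a next to it on chromosome 2, fell by 0.67 (adjusted p = 0.0019).

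In the classical route, C2, cut together with C4, fell by 0.51 (adjusted p = 0.0055). In the lectin route, Colec12, a scavenger receptor of the collectin family, fell by 0.97 (adjusted p = 0.0003). Masp1, which encodes a lectin-route protease, had a mean signal of 800.9 in KO cells and 504.7 in WT cells and rose by 0.66 (adjusted p = 4.9e-05). Cfp, which encodes properdin, a stabiliser of the alternative enzyme, rose by 0.55 (adjusted p = 0.025). Cd93, first described as a C1q receptor, averaged 0.952 in KO cells and 0.357 in WT cells. Cfp and Cd93 are named after their values were seen. Cr1l, a membrane regulator of C3 cleavage, averaged 39.1 in KO cells and 42.3 in WT cells, and C1qbp, a C1q-binding protein, 49.9 in KO cells and 54.0 in WT cells, and neither passed. The calls of C4bp and Cfp were lost without KO replicate 2 or 3 or without the filter, and that of C1rl without any 1 KO library or without WT replicate 1 or 3. Receptors for the split products C3a and C5a were not among the tested genes.

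**Figure D3:**
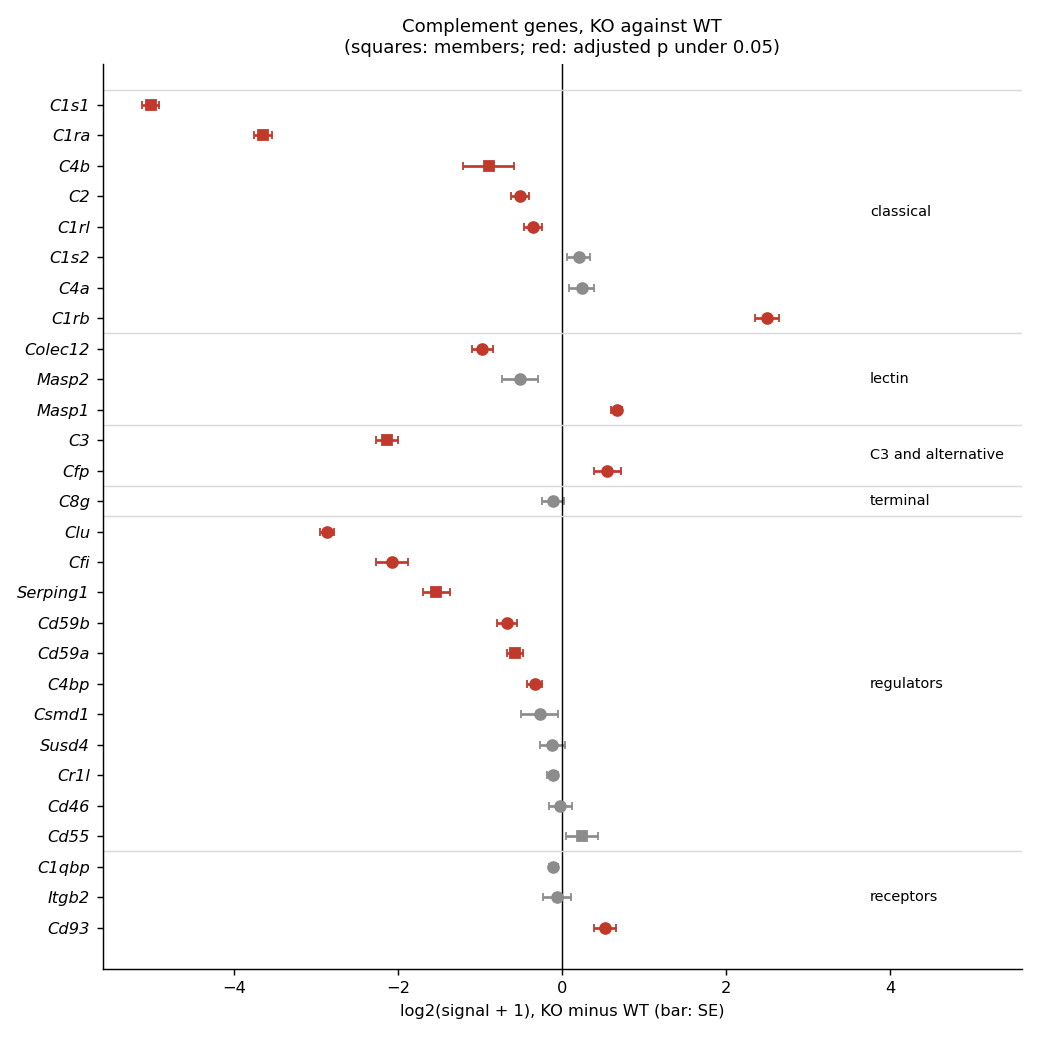
Difference in log2(signal + 1), KO minus WT, with its SE, for complement genes, grouped by role (squares: the followed genes; red: adjusted p under 0.05). Most called genes lie left of 0, led by C1s1 and C1ra; C1rb lies far to the right. The value drawn for C1s1 depends on the pseudocount, since its KO libraries are at 0.

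**Figure D4:**
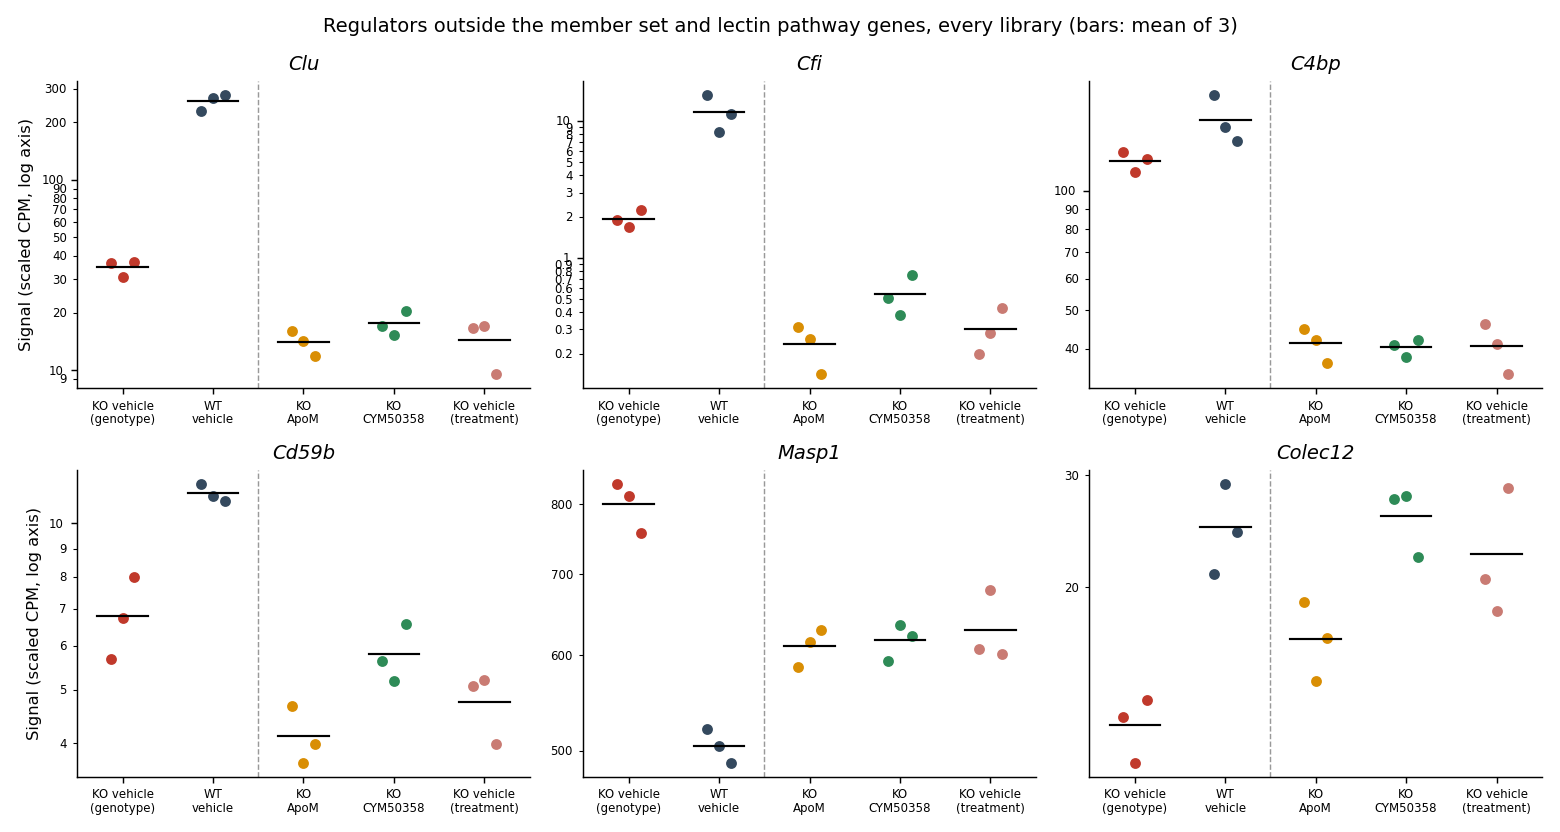
Signal (log axes) of 4 regulators and 2 lectin-route genes in each library, with a bar at the mean of 3. Clu, Cfi, C4bp, Cd59b and Colec12 are lower and Masp1 higher in KO than in WT cells. Within the treatment set, every ApoM library lies below every CYM50358 library for Colec12.

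Genes of the signals known to induce complement (25 interferon, interleukin-6 and NF-kB pathway genes, all tested) were called in both directions in KO cells, 7 higher and 8 lower. The shares over all tested genes were 22.6% higher and 22% lower. Tnfrsf1a, a receptor for tumour necrosis factor, fell by 0.39 (adjusted p = 0.00035) and Ifnar1, a type I interferon receptor chain, by 0.31 (adjusted p = 0.00085). Jak2, a kinase of cytokine receptors, rose by 0.46 (adjusted p = 0.0008), while Jak1 fell by 0.31 (adjusted p = 0.0011).

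Markers of other cell types were summed over their lists. Counts of called markers stand beside shares of 22.6% higher and 22% lower over all tested genes. Leukocyte markers came to 30.9 to 36.9 in KO cells and 24.0 to 28.7 in WT cells, with Adgre1, Cd3e and Tyrobp at 0 reads in both, and of 3 tested 1 was higher and 1 lower. Cd14 made up most of that sum in KO cells, with 24.3 to 30.1 there and 11.5 to 16.9 in WT cells. Csf1r went the other way, with 3.19 to 4.22 in KO cells and 9.20 to 11.8 in WT cells. Endothelial markers summed to 40.6 to 45.8 in KO cells and 54.3 to 65.0 in WT cells, and all 3 that were tested of 8 fell. Ehd3 made up most of that sum, with 37.2 to 42.7 in KO cells and 44.0 to 51.2 in WT cells. The sums of parietal and tubular markers (785 to 952 in KO cells, 814 to 960 in WT cells) overlapped while their members moved in opposite directions, 1 higher and 2 lower of 6 tested. Cdh16, a tubular cadherin, had 179.9 to 219.0 in KO cells and 51.8 to 86.6 in WT cells, and Aqp1, a water channel, had 50.2 to 79.5 in KO cells and 106.0 to 125.9 in WT cells. The sums of mesangial and fibroblast markers (6835 to 7917 in KO cells, 5787 to 7918 in WT cells) also overlapped, and consisted mostly of Acta2, smooth muscle actin, at 6710 ± 590 in KO cells and 6686 ± 1083 in WT cells (SD, n = 3 each). Of the 10 genes in that list, 2 were higher and 3 lower, with Thy1 tested through WT cells alone. Col1a1, a collagen I chain, had 407.5 to 582.2 in KO cells and 19.5 to 26.8 in WT cells. Pdgfrb, a growth factor receptor, had 114.5 to 115.4 in KO cells and 242.0 to 267.9 in WT cells, and Cspg4, a pericyte proteoglycan, had 0.287 to 0.731 in KO cells and 7.88 to 14.6 in WT cells. All 9 tested podocyte markers were called, 3 higher and 6 lower, among them Wt1 (-2.64) and Lmx1b (2.33). The part of any of these in the complement differences was not tested.

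The nearest tested genes on either side of each complement gene gave 16 neighbours, of which 3 were higher and 8 lower. The shares over all tested genes were 22.6% higher and 22% lower. Among the lower neighbours, C1ra and C1s1 are followed genes counted again, and C1rl, C2, C4bp and Cd59b are other complement genes. The higher neighbours were C1rb, Tnxb and Ypel4. C1rb passed the filter through KO cells alone and C1s1 through WT cells alone, so their places in this count are descriptions. Beside C3, Tubb4a fell by 1.18 (adjusted p = 0.00034) and Gpr108 did not pass the test (-0.02, adjusted p = 0.81). Beside Serping1, Ypel4 rose by 0.45 (adjusted p = 0.020) and Ube2l6 did not pass (-0.12). Beside Cd59a, Cd59b and Hipk3 (-0.37, adjusted p = 0.00055) both fell. The medians of chromosomes 17, 2 and 1, which hold the other 6 genes, were 0.01, -0.04 and -0.02.

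With ApoM, none of the 6 complement genes that could be tested was called (0 of 6 by limma, 0 of 6 by edgeR on recovered reads, and 0 at an unadjusted p under 0.05 in limma). DESeq2 gave an adjusted p in the treatment comparisons for C3, Serping1, Cd55 and Cd59a but not for C4b and C1ra, and called none of those it tested. Over all 13839 genes tested, 0.0434% were called and 5.46% had an unadjusted p under 0.05. C1s1 and Cfb had 0 reads in all 9 libraries of the treatment set. C3 had a signal of 28.1, 26.9 and 30.2 with ApoM and 26.0, 29.0 and 27.6 with vehicle. The groups overlapped; the difference was 0.04, with a 95% interval from -0.14 to 0.22. Cd59a was equally close, with 16.8, 18.8 and 17.1 under ApoM and 18.6, 16.6 and 17.4 under vehicle (0.004, interval -0.21 to 0.22).

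The remaining genes were measured less precisely. Serping1 had 4.63, 4.18 and 4.23 with ApoM and 4.88, 4.31 and 4.38 with vehicle (-0.05, interval -0.36 to 0.27). C1ra averaged 1.35 ± 0.376 with ApoM and 1.52 ± 0.305 with vehicle (SD, n = 3 each; -0.11, interval -0.51 to 0.29). C4b averaged 0.656 ± 0.180 with ApoM and 1.10 ± 0.498 with vehicle (-0.33, interval -0.76 to 0.11). Cd55 averaged 4.12 ± 0.734 with ApoM and 3.34 ± 0.530 with vehicle (0.24, interval -0.11 to 0.59). On log2(signal + 1), the intervals of C4b and Cd55 reach past 0.57 in size, the genotype difference of Cd59a, and those of the other 4 genes do not. This scale shrinks changes at a signal as low as that of C1ra, so its interval does not exclude a fold change as large as that of Cd59a. With 0.1 in place of 1 added to the signal, C1ra differed by -0.18 (SE 0.32).

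CYM50358 likewise gave no call among the 6 genes by limma or edgeR (1 at an unadjusted p under 0.05 in limma), where 2.59% of 13877 genes were called. Serping1 came nearest, with 6.61, 6.05 and 5.40 under CYM50358 and 4.88, 4.31 and 4.38 under vehicle. Every treated library lay above every vehicle library, as for 20.9% of genes, and the difference of 0.34 (SE 0.16, interval 0.01 to 0.68) did not pass after adjustment (adjusted p = 0.29). C3 had 23.0, 30.6 and 26.7 under CYM50358 and 26.0, 29.0 and 27.6 under vehicle (-0.05, interval -0.27 to 0.18).

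The other 4 overlapped between CYM50358 and vehicle. Cd59a averaged 19.0 ± 0.761 with CYM50358 and 17.5 ± 1.00 with vehicle (0.11, interval -0.11 to 0.34). C4b differed by -0.06 (interval -0.53 to 0.40), Cd55 by 0.12 (interval -0.33 to 0.57) and C1ra by -0.01 (interval -0.43 to 0.40).

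**Figure D5:**
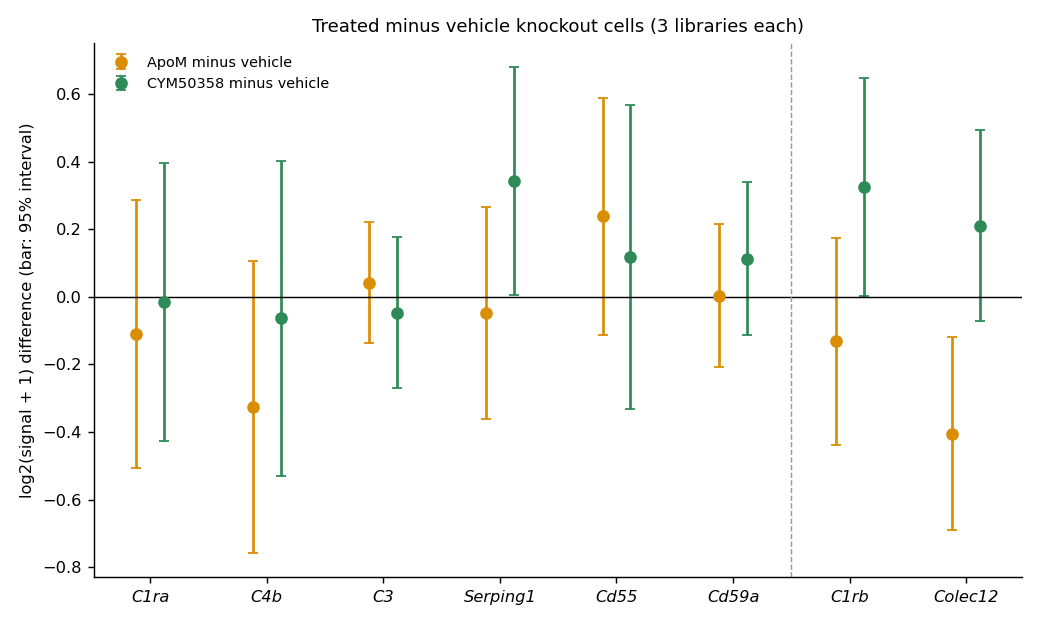
Difference in log2(signal + 1) from vehicle, with its 95% interval, for ApoM and CYM50358 (3 libraries in each group, the same 3 vehicle libraries in both comparisons). The 6 followed genes lie left of the dashed line and 2 further complement genes right of it; Serping1 reaches 0.34 under CYM50358.

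Set directly against CYM50358, ApoM gave no call among the 6 genes by limma or edgeR (1 at an unadjusted p under 0.05 in limma), where 2.59% of 13878 genes were called. Serping1 differed by -0.39 without passing after adjustment (interval -0.71 to -0.07, adjusted p = 0.21), and its libraries did not overlap, as for 19.5% of genes. C3 differed by 0.09 (interval -0.12 to 0.30). Of 18 other complement genes 1 passed: Colec12 had 18.9, 14.2 and 16.6 with ApoM and 27.5, 27.9 and 22.3 with CYM50358 (-0.62, SE 0.12, adjusted p = 0.0044). The call was lost without the filter on low values (adjusted p = 0.24), and the other settings gave 6.8e-05 to 0.049. With vehicle it had 20.6, 18.3 and 28.6, which overlaps both treated groups.

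C1rb, the copy of C1ra, averaged 6.94 ± 0.791 with ApoM, 9.93 ± 1.43 with CYM50358 and 7.72 ± 1.21 with vehicle (SD, n = 3 each). The direct difference of -0.46 did not pass (adjusted p = 0.10) and passed with the replicate number as a block (adjusted p = 0.049). The share of C1rb in the sum with C1ra stayed between 78.3% and 89.5% in all 9 libraries. Among the inducing signals, Cebpb, a transcription factor of acute-phase genes, rose by 0.77 with CYM50358 against vehicle (adjusted p = 0.0078). Cebpb was lower with ApoM than with CYM50358 (-0.63, adjusted p = 0.0098), as was Cebpd (-0.46, adjusted p = 0.026).

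The 2 sets of vehicle-treated KO libraries were scaled in separate tables, so they are set side by side without a test. C3 averaged 27.5 in the treatment set and 55.1 in the genotype set, a gap of -0.97 in mean log2(signal + 1). C4b averaged 1.10 in the treatment set and 4.69 in the genotype set (-1.44), and Serping1 averaged 4.53 in the treatment set and 2.42 in the genotype set (0.69). Cd55 averaged 3.34 in the treatment set and 7.53 in the genotype set (-0.97). Its mean was below the 6.33 of WT cells in the treatment set and above it in the genotype set. The treatment set held no WT cells and had its own scale, so the direction of Cd55 against WT cells cannot be read there. The gaps between the 2 KO sets are larger than the treatment differences of the same genes. C1ra averaged 1.52 in the treatment set and 1.33 in the genotype set. All KO means of C3, C4b, C1ra, Serping1 and Cd59a lay below those of WT cells, with the treatment set on a separate scale.

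Over the 9 treatment libraries, the genes whose profile lay closest to that of C3 were Polh, Pwp1 and Stk40. Their root mean square difference from C3, on centred log2(signal + 1), was 0.0551, 0.0574 and 0.0581 among 14158 genes ranked. C3 itself ran from 23.0 to 30.6 in these libraries and was called in no treatment comparison. A small difference from so flat a profile favours genes that vary little, so the ranks are a description and show no shared response. Of the other followed genes, Cd59a ranked highest, at 6733 with 0.172.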

How the data were processed

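RNA of mouse podocytes was made into libraries with an mRNA kit, per the labels' protocols. The submitters' processing notes name the build mm39 and the tools STAR, edgeR, FastQC and Trim Galore; versions, roles and the strand of counting are not stated there. The authors deposited 3 tables with per-library signal (CPM with a further scaling, as the values show), a mean signal, log2 fold changes with their SE, and p-values, raw and adjusted, with the score they rest on. The vehicle columns of both treatment tables were identical, so those 9 libraries share a scale; the genotype table was scaled separately, and tests were made only within a table. No value column belonged to no sample (0 columns).

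The signal was whole multiples of a smallest step: whole reads were recovered for 100% of values above 0 (tolerance 0.01), and edgeR 4.0.16 on them called 6342 genes for KO against WT, 6 for ApoM, 264 for CYM50358 and 306 between the treatments. The main test was limma 3.58.1 (R 4.3.3) on log2(signal + 1), which understates changes of low genes. It was also run on simulated counts with the same dispersion for every gene and no change planted in the lowest genes. That run does not stand for the spread of these libraries or for the lowest genes. The design had named edgeR for raw counts, and the signal decided for limma. DESeq2 1.42.0 was an alternative. Floors are 3 reads per library and cover counting error only.

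The followed genes and all lists were chosen with earlier results of these data known. Named genes were the 8, other complement genes called in a comparison (up to 8, smallest p first) or among the 5 highest by mean signal, up to 4 called inducing signals or markers per list, tested neighbours, flanking genes of the C1 cluster, and 3 genes like C3; any other named gene was chosen after its values were seen. Certain called genes enter the counts but are left out of the text. Copies were compared on GENCODE M21 transcripts: C1s1 and C1s2 align at 95.9% identity, C4b and C4a at 96.1%, Cd59a and Cd59b at 89.9% and Cd55 and Cd55b at 93.6%, so reads of these pairs may be split. Replicate numbers come from the titles. Same-numbered KO and WT libraries correlated at 0.371, 0.217 and 0.105 in their deviations from group means, and unlike-numbered ones at -0.298 to 0.197. Same-numbered ApoM and CYM50358 libraries correlated at 0.132, 0.115 and 0.132. Equal numbers may thus mark pairs in these comparisons. The main fits held group only and ignored such pairs, and a block on the replicate number was run as a further setting. ApoM and vehicle (0.135, -0.122, 0.0921) and CYM50358 and vehicle (0.0938, -0.161, -0.0305) gave values of both signs.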

Additional observations from a re-analysis of the deposited data

Results flagged for a closer look

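Colec12 differed between the 2 treatments: ApoM minus CYM50358 was -0.62 on the log2 scale (SE 0.12, adjusted p = 0.0044, limma), with ApoM libraries at 14.2 to 18.9 and CYM50358 libraries at 22.3 to 27.9. Without the filter on low values the call was lost (adjusted p = 0.24), and it was kept under the other settings (6.8e-05 to 0.049). Each treatment alone did not pass against vehicle (-0.40, adjusted p = 0.69, for ApoM and 0.21, adjusted p = 0.47, for CYM50358), and both share the same 3 vehicle libraries.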

How the results depend on the processing

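No called difference of the 8 followed genes changed sign under any setting run, and C4b is the one followed gene whose genotype call was lost: without KO replicate 2 or 3, without a filter on low values (adjusted p = 0.13) and with copies summed; its leave-one-out differences ran from -1.13 to -0.47. The sum over copies was chosen after the data were seen. Differences that changed sign were all uncalled: with copies summed, Cd59a under ApoM was -0.036, C4b under CYM50358 0.10 and C1ra under CYM50358 0.28. Leaving out 1 library gave -0.043 to 0.046 for Cd59a and -0.0021 to 0.080 for C3 under ApoM. Under CYM50358 it gave -0.14 to 0.054 for C3, -0.19 to 0.12 for C4b, -0.099 to 0.075 for C1ra and -0.15 to 0.29 for Cd55. For ApoM minus CYM50358 it gave -0.012 to 0.19 for C3 and -0.052 to 0.39 for Cd55. Of the other complement genes, ApoM had 0 calls, against 1 with DESeq2 and 1 with the replicate block. CYM50358 had 1 call, 0 without a filter and 0 to 1 when 1 library was left out. ApoM minus CYM50358 had 1 call, 0 without a filter, 2 with DESeq2 (C1rb added), 2 with the replicate block and 1 to 2 when 1 library was left out. With the replicate block, KO against WT kept 6 calls among the followed genes (C4b adjusted p = 0.0021) and gained Masp2 among the others (adjusted p = 0.016, against 0.081); it changed no other call among complement genes between KO and WT. Over all genes, calls for ApoM were 6, 19 with DESeq2, 17 with the block and 0 without a filter or in 1 fit of 9 libraries. For CYM50358 they were 359, 763 with DESeq2, 599 in 1 fit of 9 libraries, 1 without a filter and 81 to 473 with 1 library left out. For ApoM minus CYM50358 they were 360, 639 with DESeq2, 1174 with the block, 6 without a filter and 126 to 536 with 1 library left out. The cause of these shifts was not tested. Depth limits C1s1 in KO cells and Cfb in both genotypes, which lie at or under 3 reads in all but 1 library of those groups.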
